A study of Mus musculus with 16 samples.

Results

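Short CDR3s were taken as all TCRα sequences whose complementarity-determining region at the V-J joint (CDR3), counted from the conserved cysteine to the conserved phenylalanine or tryptophan, holds 33 bp or less, that is at most 11 residues. They numbered 5838 of the 83992 CDR3 nucleotide sequences in 16 libraries, where a sequence is counted once per library in which it was found, and they carried 60737 reads. Libraries of all CD8 cells held 5577 of them, or 7.09% of their sequences, and libraries of sorted Vα3.2+ cells held 261, or 4.91%. Across libraries they made 5237 different nucleotide sequences and 3713 different amino acid sequences. The reference class throughout is the 72124 sequences of 36 to 45 bp.

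The study sequenced TCRα transcripts of CD8 T cells from mice with or without Themis, a T cell protein that acts in TCR signaling during thymic selection. From Themis+/+Foxp3-GFP and Themis-/-Foxp3-GFP mice, single-positive CD8 cells of the thymus and CD8 cells of lymph nodes (LN) were sorted either as all CD8 cells or as cells that bind an antibody to Vα3.2, the V region of TRAV9N-3. All mice were C57BL/6 and carried the Foxp3-GFP reporter, the deletion of Themis is germline, no treatment was given, ages are not given here, and each of the 8 groups had 2 libraries. The series text describes individual mice, whereas by the methods LN cells of 1 genotype were pooled over mice, so p-values measure the spread between libraries, which may hold 1 animal or several. The tables cannot check the Themis genotype. They do check the sort by V segment. Of the sequences of a sorted library, 65.1% to 96.5% used TRAV9-3 (TRAV9N-3 with its near-identical copy TRAV9D-3). Without the sort, 0.846% to 4.43% did. By reads the check was weaker, as TRAV9-3 took 41.2% to 89.3% after the sort, against 0.610% to 3.22% without it. The whole TRAV9 family held 98.8% to 99.9% of sorted reads. Where TRAV9-3 was lowest by reads, other TRAV9 members thus made up most of the remainder.

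The TCRα chain is assembled by joining a V segment to a J segment, and the CDR3 is the stretch that spans the joint. Before joining, nucleases trim the ends of both segments, and terminal transferase may add non-templated N bases between them. The CDR3 loops of the α and β chains lie over the center of the peptide-MHC ligand. The length of the loop is thus the sum of what the V and J segments bring, what is trimmed and what is added, so that J segments with a short coding end reach a short CDR3 with less trimming.

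The germline J segments that the results turn on are shown here from GENCODE M21 (GRCm38, chromosome 14, plus strand), with the bases that fall inside the CDR3 in capitals. The first 5 were the J segments with the highest share of short sequences, and the last 2 those with the lowest.
TRAJ31 (chr14:54187895-54187951): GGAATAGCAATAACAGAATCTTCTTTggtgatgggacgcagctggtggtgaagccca
TRAJ43 (chr14:54174742-54174798): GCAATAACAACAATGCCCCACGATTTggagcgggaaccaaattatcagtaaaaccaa
TRAJ33 (chr14:54185358-54185414): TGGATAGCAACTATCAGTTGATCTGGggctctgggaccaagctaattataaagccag
TRAJ21 (chr14:54198790-54198846): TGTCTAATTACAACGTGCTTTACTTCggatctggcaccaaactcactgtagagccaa
TRAJ9 (chr14:54209393-54209450): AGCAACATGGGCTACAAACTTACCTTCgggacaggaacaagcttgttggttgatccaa
TRAJ32 (chr14:54186101-54186166): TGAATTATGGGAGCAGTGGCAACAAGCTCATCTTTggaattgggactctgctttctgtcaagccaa
TRAJ18 (chr14:54200777-54200842): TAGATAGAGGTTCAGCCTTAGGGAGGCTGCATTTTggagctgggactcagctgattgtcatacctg
The first 4 bring 26 bases to the CDR3 and TRAJ9 brings 27, whereas TRAJ32 and TRAJ18 bring 35.

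On the V side, the ends of 3 segments are shown with the CDR3 bases in capitals. With D and N copies merged, TRAV12-3 was the V segment most raised among short CDR3s and TRAV16 the most lowered. TRAV9N-3 is the segment selected by the sort. The TRAV12-3 copy shown was lower in short sequences when counted alone.
TRAV12-3 (chr14:53621657-53622245): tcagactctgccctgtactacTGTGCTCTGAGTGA
TRAV16N (chr14:53351028-53351621): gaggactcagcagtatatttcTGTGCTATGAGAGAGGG
TRAV9N-3 (chr14:53231433-53232102): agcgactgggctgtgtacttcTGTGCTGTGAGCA
TRAV16N reaches 17 bases into the CDR3, TRAV12-3 reaches 14 and TRAV9N-3 reaches 13 in GENCODE, although the alignments in the tables end TRAV9N-3 after 11.

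Finally, 6 short CDR3s are shown whose amino acid sequences were found in most libraries of all CD8 cells. The nucleotide sequence printed for each was found in 4 to 6 of these 8 libraries. The alignments in the tables assigned no N base to any printed sequence. All are thus shown wholly in lower case, although the V alignment of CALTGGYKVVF holds 1 edit and so do some entries of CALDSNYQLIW.
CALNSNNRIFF (TRAJ31): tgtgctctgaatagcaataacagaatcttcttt
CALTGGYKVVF (TRAJ12): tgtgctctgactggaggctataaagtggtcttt
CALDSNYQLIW (TRAJ33): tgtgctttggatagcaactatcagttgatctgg
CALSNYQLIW (TRAJ33): tgtgctctgagcaactatcagttgatctgg
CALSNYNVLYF (TRAJ21): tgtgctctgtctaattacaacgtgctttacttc
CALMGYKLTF (TRAJ9): tgtgctctgatgggctacaaacttaccttc
Where the J segment is shown above, the middle of the loop is read straight from it, as in SNNRIFF of TRAJ31 and MGYKLTF of TRAJ9.

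Libraries of all CD8 cells held 57455 to 146191 reads and sorted libraries 10338 to 25247. Reads come from PCR without molecular identifiers, so that all intervals cover counting error only. The number of short sequences per library ranged from 274 to 1241 for all CD8 cells and from 5 to 96 for sorted cells, with 5 in replicate 1 of each sorted thymus group. The libraries of all CD8 cells also stood apart from the sorted ones in the J end of the CDR3. The last 9 bases differed from the common ending of the same J segment in 54.1% to 62.9% of short sequences (median 57.4%) and in 50.2% to 57.5% of those of 36 to 45 bp, whereas only 1 of the short sequences of sorted libraries differed. Of 2410 short sequences with a single changed base, 1880 (78.0%) had G in place of T. Changes fell mostly on the bases 9, 7, 6 and 5 from the end, at 12.01%, 14.2%, 15.7% and 23.8% of short sequences, and on under 1% of them at the bases 8, 3, 2 and 1. Base 4 was changed in 3.98% of short sequences and in 8.58% of those of 36 to 45 bp. The next pair differs only by T29G, counted from 1 at the first base of the CDR3 and shown in capitals.
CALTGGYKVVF: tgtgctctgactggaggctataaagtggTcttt
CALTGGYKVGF: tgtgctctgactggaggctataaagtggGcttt
Both were found in 6 libraries, with 148 and 75 reads. Where the last 9 bases were restored to the common ending and identical sequences merged, the 5577 short sequences of all CD8 cells became 2842 and the 67316 of 36 to 45 bp became 37008. Whether these changes arose in the cells or in library making or sequencing was not tested, and the effect on counts of distinct sequences is given where it changed a result.

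**Figure D1:**
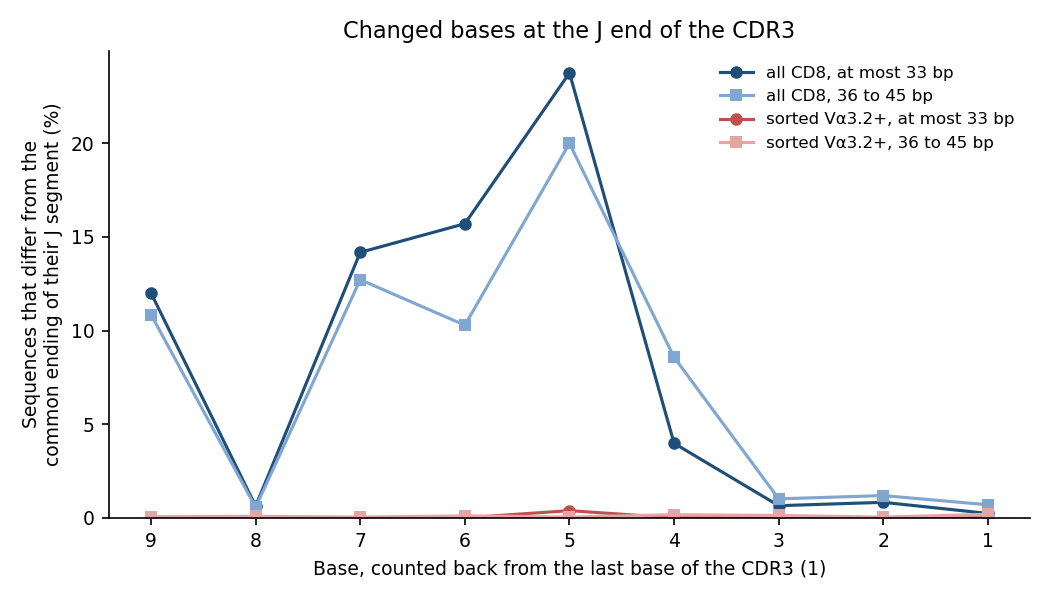
Share of sequences (percent, y axis) whose base differs from the common ending of their J segment, at each of the last 9 bases of the CDR3 (x axis, 1 is the last base), for short sequences and those of 36 to 45 bp in the libraries of all CD8 cells and of sorted Vα3.2+ cells. In libraries of all CD8 cells the short sequences peak at base 5 with 23.8%, while the sorted libraries lie near 0 throughout.

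Short CDR3s formed the lower flank of the length distribution. Among all CD8 cells, 3949 of them had 33 bp (5.02% of sequences), 1305 had 30 bp, 215 had 27 bp, 52 had 24 bp, 34 had 21 bp, 10 had 18 bp and 12 had 15 bp. All lengths were multiples of 3. On either side of the threshold, sequences of 33 bp had on average 9.45 V bases, 22.9 J bases and 1.47 N bases, and sequences of 36 bp had 10.1, 24.7 and 1.501. At 27 bp the V part was down to 7.38 bases and the J part to 18.8. The codon of the first cysteine was missing in 2.30% of short sequences (128 of 5577) but in 0.207% of those of 36 to 45 bp, and the share rose from 0.912% at 33 bp to 3.14% at 30 bp and 12.6% at 27 bp. The shortest CDR3s, at 15 bp, came from 3 libraries and gave 10 amino acid sequences with 66 reads in all. One of them, CGVIF (tgtggagtcatcttt, TRAV7-2 with TRAJ30), was found in 1 library, with 21 reads over 2 nucleotide sequences, of which 1 is shown.

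To find out whether short CDR3s depended on genotype, tissue or sort, their share was computed in each library. In libraries of all CD8 cells they took 6.43% and 5.79% of reads in Themis+/+ LN, 4.55% and 7.47% in Themis-/- LN, 7.04% and 6.38% in Themis+/+ thymocytes and 6.52% and 7.76% in Themis-/- thymocytes. The Themis-/- LN pair lay on either side of the Themis+/+ LN pair, and its values had 95% Wilson intervals of 4.39% to 4.71% and 7.29% to 7.66%. These intervals treat reads as independent, which PCR reads are not. By distinct sequences the intervals of this pair were 5.61% to 7.05% and 6.98% to 8.40%, which overlap. In sorted libraries the shares of reads were 4.47% and 5.07% in Themis+/+ LN, 5.15% and 2.54% in Themis-/- LN, 6.96% and 4.02% in Themis+/+ thymocytes and 3.91% and 3.15% in Themis-/- thymocytes. The Themis-/- thymocytes were below both Themis+/+ libraries here, which at 2 against 2 cannot give an exact p below 0.3333.

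Sorted Vα3.2+ cells had fewer short CDR3s than all CD8 cells. Their mean share of distinct sequences was 5.03% against 7.02%, a difference of -1.99 percentage points, and the highest sorted library (5.96%) lay below the lowest of all CD8 cells (6.27%) (exact permutation test within genotype and tissue, two-sided p = 0.00154, the smallest this design allows, and 0.00926 after Benjamini-Hochberg adjustment over 6 tests). After the ends had been restored and merged, the difference was -1.45 points (exact permutation test, adjusted p = 0.0185). The ranges then overlapped, with 5.71% in replicate 1 of all CD8 cells from Themis+/+ LN and 5.95% in replicate 1 of sorted Themis+/+ thymocytes. By reads the means were 4.41% and 6.49%, a difference of -2.08 points (exact permutation test, adjusted p = 0.0278). With a limit of 30 bp the differences were -0.893 points by sequences and -0.910 by reads, and neither passed (exact permutation test, adjusted p = 0.106 each). Among sequences with TRAV9-3 only, an alternative chosen after seeing the data, the difference in distinct sequences was -0.245 points (exact permutation test, adjusted p = 0.826) and that in reads turned to 1.58 points (exact permutation test, adjusted p = 0.235). The sort, the V segment it selects and the different export of the sorted tables cannot be told apart in the first comparison.

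Tissue and genotype gave smaller differences that did not pass the test. The mean share of reads was 5.18% in LN and 5.72% in thymus (difference -0.534 points, exact permutation test, adjusted p = 0.454), and that of distinct sequences 5.82% and 6.24% (-0.416 points, exact permutation test, adjusted p = 0.454). In Themis-/- libraries the mean share of reads was 5.13% against 5.77% in Themis+/+ (-0.639 points, exact permutation test, adjusted p = 0.454), while that of distinct sequences was 6.10% against 5.95% (0.152 points, exact permutation test, adjusted p = 0.702). By reads, the genotype difference changed sign to 0.164 points in libraries of all CD8 cells alone. The genotype difference did not differ detectably between LN and thymus in either sort (exact permutation tests, p from 0.556 to 0.944).

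**Figure D2:**
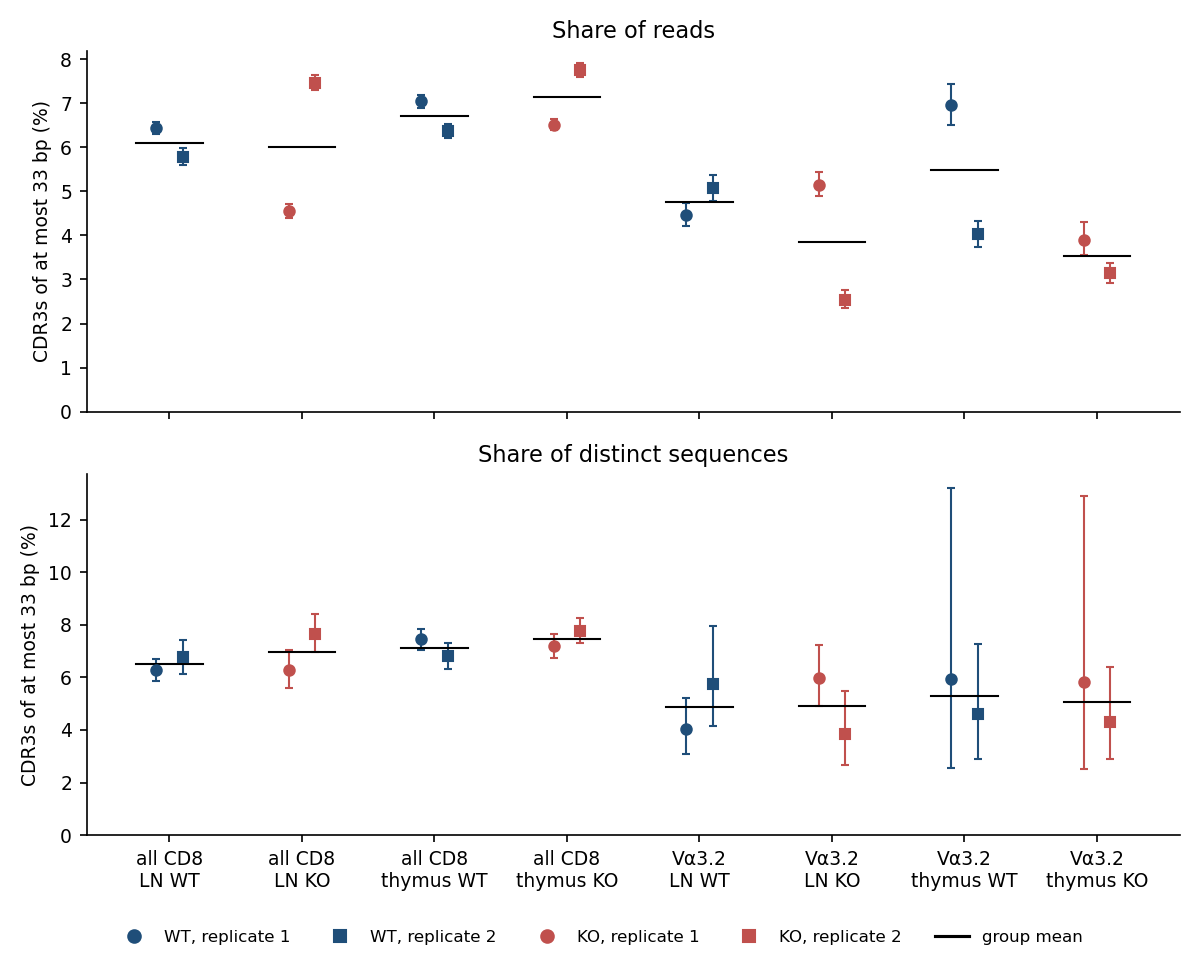
Share of CDR3s of at most 33 bp (percent, y axes) among reads (top) and among distinct sequences (bottom) in each of the 16 libraries, by group (x axis). Points are libraries with 95% Wilson intervals, circles replicate 1 and squares replicate 2, blue Themis+/+ (WT) and red Themis-/- (KO), and lines are group means. By sequences as deposited, all 8 sorted libraries lie at or below 5.96% and all 8 libraries of all CD8 cells at or above 6.27%.

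In the segment tests below, short CDR3s differed from longer ones in more J segments (32 of 43) than V segments (19 of 50). Among all CD8 cells, TRAJ31 was used by 12.04% to 20.1% of short sequences (median 16.7%) but by 3.85% to 5.29% of those of 36 to 45 bp (median 4.46%). TRAJ33, which encodes the SNYQLIW stretch, was used by 8.78% to 16.02% of short sequences and 3.31% to 4.55% of the others. TRAJ21 was used by 7.34% to 13.5% against 3.53% to 4.93%. The ranges of the 8 libraries did not overlap for any of these 3, which together covered 34.7% to 43.2% of short sequences in a library and 11.1% to 13.7% of those of 36 to 45 bp.

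In the test over all 43 J segments (edgeR quasi-likelihood on counts of distinct sequences with library as a block, Benjamini-Hochberg adjusted p under 0.05), 32 (74.4%) differed, 8 higher (18.6% of those tested) and 24 lower (55.8%) in short sequences. The germline bases of a J segment are part of the length that sets the classes. These p-values therefore do not test a preference for a segment apart from its length. Of the 8 raised segments, 7 were higher in each of the 8 libraries. TRAJ31 had the largest rise, at a log2 fold change of 2.14 ± 0.17 (SE) and an edgeR adjusted p of 1.5e-08. TRAJ43, which brings a run of asparagines, followed at 2.00 ± 0.20, with 3.69% of short sequences against 1.08%. TRAJ33 rose by 1.86 ± 0.16, TRAJ21 by 1.47 ± 0.15 and TRAJ9 by 1.33 ± 0.20 on the log2 scale. TRAJ34 (5.12% against 2.95%) and TRAJ47 (2.83% against 1.71%) completed the set, with log2 fold changes of 1.01 ± 0.19 and 0.96 ± 0.21. TRAJ13 also passed at 1.11 but was higher in 7 libraries.

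Of the 8 lowered J segments with the smallest adjusted p and the same direction in each library, 5 bring 32 or 35 bases to the CDR3 and 3 bring 29 or 30. TRAJ22, a frequent segment with 29 bases, made up 5.94% of sequences of 36 to 45 bp and 1.70% of short ones, a log2 fold change of -1.62 ± 0.24. TRAJ32 contributed 8 short sequences against 1117 of 36 to 45 bp (log2 fold change -3.25 ± 0.53), TRAJ4 contributed 18 against 1145 (-2.44 ± 0.52), and TRAJ50 25 against 1338 (-2.01 ± 0.43). TRAJ37, TRAJ58 and TRAJ44 fell by 1.62, 2.87 and 2.58 on the log2 scale. TRAJ18, the J segment of the invariant NKT cell α chain, gave 2 short sequences of 5577 against 1235 of 67316. The edgeR adjusted p values of these 8 lay between 7.05e-07 and 0.00123. The median log2 fold change over J segments was -1.09 with TMM and -1.33 without it, so that the changes are relative to that shift, and 27 segments were lower without scaling. All 32 calls kept their direction there and in DESeq2. After the ends had been restored and merged, 12 segments were higher and 21 lower, and 29 of the 32 calls were kept with none in the opposite direction.

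The share of a J segment's sequences that were short followed the number of germline bases it brings. Segments with at most 26 bases by the tables made up 44.9% to 55.3% of short sequences (median 48.4%) and a median of 18.3% of those of 36 to 45 bp, and the ranges did not overlap. Among sequences of at most 45 bp, 23.8% of those with TRAJ31 were short, 21.1% with TRAJ43, 19.8% with TRAJ33, 16.3% with TRAJ21 and 15.8% with TRAJ9, but 0.711% with TRAJ32 and 0.162% with TRAJ18. Across the 43 segments, Pearson's r between germline bases and this share was -0.74 and Spearman's rho was -0.78, given as a description because segments of a library share its reads and because the germline bases are part of the length. The relation was loose among longer segments, where TRAJ39 with 32 bases reached 6.56% and TRAJ24 with the same number 1.001%. For 5 segments (TRAJ12, TRAJ24, TRAJ45, TRAJ47 and TRAJ57) the reference behind the tables and GENCODE M21 differed in length. With the lengths of the tables, r was -0.67.

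**Figure D3:**
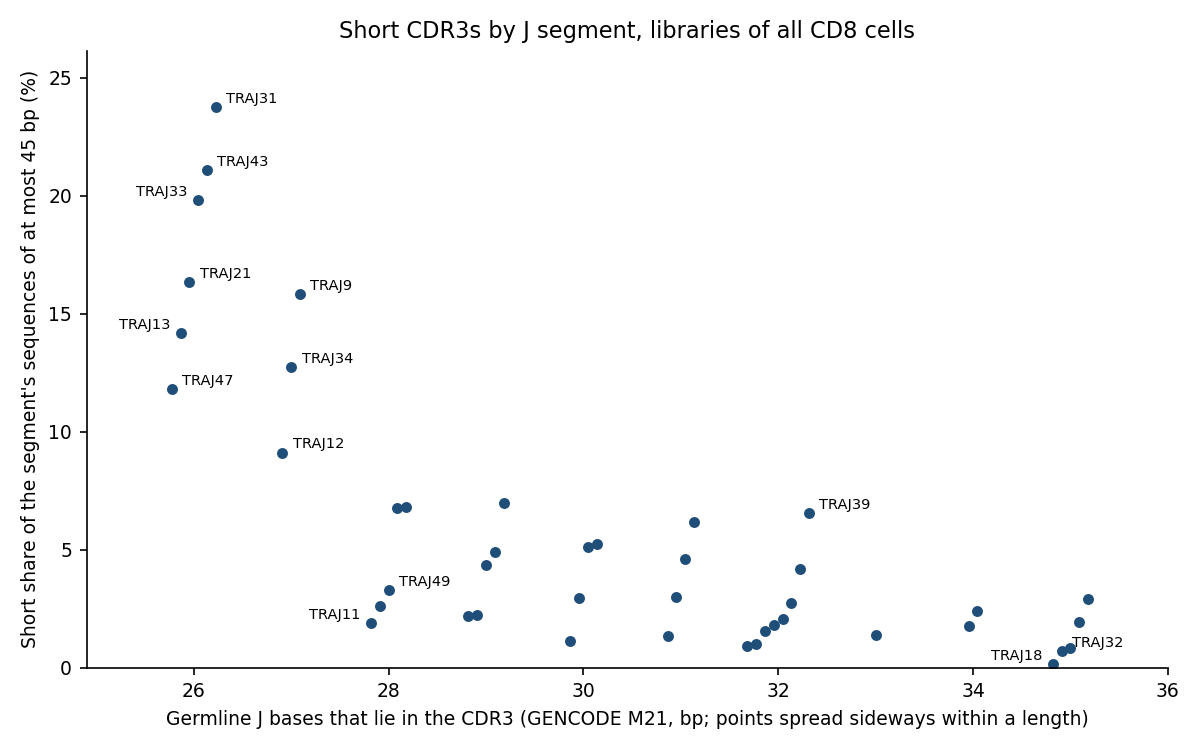
Share of each J segment's sequences of at most 45 bp that have at most 33 bp (percent, y axis) against the germline J bases that lie in the CDR3 (bp, x axis), for 43 J segments in the libraries of all CD8 cells pooled. Each point is a segment, spread sideways within a length. Segments of 26 or 27 bases lie between 9.12% and 23.8%, while TRAJ18 and TRAJ32 at 35 bases lie below 1%.

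Usage also varied with length among the short CDR3s themselves. TRAJ31 was found in 14.3% of sequences of 33 bp, 22.1% of those of 30 bp and 42.3% of those of 27 bp, against 9.89% at 36 bp. TRAJ33 went the other way, with 12.3%, 11.6% and 1.86%. TRAJ21 stayed between 9.67% and 10.2% over the same lengths and made up 17.6% of the 108 sequences of at most 24 bp.

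On the V side, fewer segments differed. TRAV12-3, a member of the large Vα8 family, was used by 14.5% to 21.3% of short sequences (median 17.7%) and by 5.32% to 8.16% of those of 36 to 45 bp (median 7.05%), and the ranges did not overlap. Its log2 fold change was 1.33 ± 0.08 (edgeR adjusted p = 1.24e-45). TRAV16 showed the reverse, at 0% to 1.70% of short sequences and 4.42% to 6.23% of the others, a log2 fold change of -3.16 ± 0.30 (edgeR adjusted p = 5.87e-21). In all, 19 of 50 V segments (38.0%) differed, 6 higher (12.0%) and 13 lower (26.0%), in the edgeR test on distinct sequences, and TRAV12-3 alone of the raised ones was higher in each library. The germline bases of a V segment are part of the CDR3 length too, so the limit given for J segments holds here. Across the 50 V segments, Pearson's r between germline bases and the share of short sequences was -0.39 and Spearman's rho was -0.53. Among the 13 segments with 14 bases, TRAV12-3 included, that share ranged from 1.75% to 17.1% of sequences of at most 45 bp.

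The other raised V segments were TRAV13-3, TRAV8-1, TRAV7-3, TRAV8-2 and TRAV13-1, with log2 fold changes of 1.25, 0.82, 0.78, 0.76 and 0.43 and a higher share in 6 or 7 of the 8 libraries. The lowered segments named by the rule were, besides TRAV16, TRAV19 (-1.41), TRAV6-6 (-1.06), TRAV7-4 (-1.04), TRAV6-7 (-0.81) and TRAV3-3 (-0.63), each lower in 8 of 8 libraries. By reads in place of sequences, 3 V segments passed the edgeR test, namely TRAV12-3, TRAV16 and TRAV15-2, the last one lower. Without replicate 1 of each group 5 segments passed and without replicate 2 there were 6, with TRAV12-3 and TRAV16 in both. The 3 copies TRAV12-3, TRAV12D-3 and TRAV12N-3 end in the same CDR3 bases, TGTGCTCTGAGTGA, and were merged here. Of the sequences of any length whose first listed V segment was one of these copies, 74 of 1169, 266 of 1709 and 645 of 3316 were short, so that the share among them differed, and TRAV12-3 counted alone was lower in short sequences.

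Of the families examined in the study, TRAV12 made up 28.7% ± 3.40 (SD, n = 8 libraries) of short sequences and 16.1% ± 0.823 of those of 36 to 45 bp. TRAV14 (Vα2) stood at 7.99% ± 3.11 and 11.4% ± 0.901, and TRAV6 at 7.08% ± 1.76 and 13.3% ± 1.02. TRAV9-3 was at 1.70% ± 2.34 and 1.81% ± 1.296 and did not pass the edgeR test (log2 fold change -0.51 ± 0.37, adjusted p = 0.271). Its highest share of short sequences, 7.30%, was in replicate 1 of Themis-/- LN, with 20 sequences, and its lowest, 0.242%, in replicate 1 of Themis+/+ thymocytes, with 3. Chains with the marks of other T cells were counted as well. TRAV11 with TRAJ18, the NKT cell pairing, was short in 0 of 53 sequences, which allows a share of up to 5.66%, TRAV1 with TRAJ33, the pairing of MAIT cells, in 1 of 29, and δ-chain V segments (TRDV) in 15 of 808, against 7.09% of all sequences, a difference that was not tested.

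Short CDR3s of all CD8 cells used 778 pairs of V and J segments, of which 8 were found in all 8 libraries. These 2 counts were not made for longer sequences. TRAV12-3 with TRAJ12 was the most frequent (158 sequences), followed by TRAV12-3 with TRAJ33 (157), with TRAJ31 (137) and with TRAJ9 (99). Of all sequences of at most 45 bp that joined TRAV12-3 to TRAJ33, 51.0% were short. The figure was 46.3% with TRAJ9, 39.3% with TRAJ12 and 26.4% with TRAJ31. TRAV12-3 was more frequent at 30 bp (31.2%) than at 33 bp (13.9%) or 36 bp (9.36%), and stood at 6.51% at 27 bp and 12.96% at 24 bp or less.

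In sorted libraries, 228 of the 261 short sequences used TRAV9-3. Their J segments again included short coding ends, with TRAJ9 in 17.5% of short TRAV9-3 sequences against 7.02% of those of 36 to 45 bp, TRAJ31 in 10.96% against 3.11%, TRAJ13 in 10.1% against 4.11% and TRAJ21 in 9.65% against 3.73%. TRAJ33 stood at 3.95% against 2.60%. These pooled shares rest on 5 to 96 short sequences per library and were not tested.

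Within short CDR3s, no J or V segment passed by genotype or tissue in the edgeR test on the deposited sequences. Among 21 J segments with enough short sequences, 0 (0%) passed by genotype and 0 (0%) by tissue, with 2 and 0 at an unadjusted p under 0.05, and DESeq2 also passed 0 and 0. By genotype this depended on the processing: in the same edgeR test 1 J segment passed after the ends had been restored and merged (TRAJ9, higher in Themis-/-), and 2 passed without replicate 1 of each group (TRAJ12 higher and TRAJ33 lower). Among 26 V segments the edgeR counts were 0 (0%) and 0 (0%), with 0 and 0 at an unadjusted p under 0.05, and 0 and 0 by DESeq2. The most raised in Themis-/-, named after their values were seen, were TRAJ9 and TRAJ12. TRAJ9 took 6.20% and 6.27% of short sequences in Themis-/- LN against 3.798% and 4.63% in Themis+/+ LN, and 9.65% and 7.52% against 5.88% and 3.42% in thymocytes, without overlap in either tissue (log2 fold change 0.80 ± 0.26, edgeR adjusted p = 0.082). TRAJ12 took 6.20% and 8.43% against 2.28% and 5.14% in LN, and 7.83% and 8.47% against 6.93% and 3.11% in thymocytes (log2 fold change 0.89 ± 0.31, edgeR adjusted p = 0.082). TRAJ31, the leading segment of short CDR3s, had a log2 fold change of -0.08 ± 0.26 between the genotypes.

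The junctions of short CDR3s differed from the others by trimming more than by N bases. In libraries of all CD8 cells, short sequences had lost 4.63 to 5.66 J bases on average (median library 5.41) and 3.60 to 4.45 V bases (median 4.25), against 2.32 to 2.498 J bases and 1.75 to 1.93 V bases at 36 to 45 bp. N bases numbered 1.24 to 1.79 per short sequence and 1.76 to 2.05 per longer one, and 39.7% to 47.95% of short sequences had none, against 32.1% to 37.3%. All these ranges stayed apart except that of the N bases. The N counts rest on alignments that may run on over substitutions, insertions or deletions (edits) in V or J, which was the case in 25.1% ± 1.42 of short sequences and 24.6% ± 0.794 of the others (SD, n = 8 libraries). Sequences with neither an N base nor such an edit, counted after seeing the data, made up 21.2% and 14.7%, higher among short ones in 8 of 8 libraries. Length is the sum of these parts, so the values describe how short CDR3s are made up and were not tested.

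Of the mean difference of 8.69 bp between the classes, 2.92 bases (33.6%) lay in more trimming of J, 2.34 (26.97%) in more trimming of V, and 1.59 (18.3%) in J segments with fewer germline bases. Bases listed beyond the coding ends made up 0.909 and N bases 0.412, or 4.74%. V segments with fewer germline bases made up 0.229. Bases that fitted both V and J took the rest. In sorted libraries, short sequences had lost 5.38 ± 0.626 J bases and 2.24 ± 0.787 V bases (SD, n = 8 libraries), against 2.496 ± 0.255 and 0.640 ± 0.145 at 36 to 45 bp. The tables end TRAV9-3 after 11 bases, so that V trimming is counted from a shorter end there.

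By genotype, short sequences of Themis-/- libraries of all CD8 cells had 1.38 N bases on average against 1.65 in Themis+/+, a difference of -0.277 (exact permutation test within tissue, adjusted p = 0.222 over 4 measures). They lost 4.04 V bases against 4.35 (adjusted p = 0.222) and 5.22 J bases against 5.43 (adjusted p = 0.389), and 44.95% against 42.2% had no N base (adjusted p = 0.222) in the same exact permutation test. With 2 strata of 2 against 2 libraries, no p below 0.0556 was possible. Replicate 1 of Themis-/- LN and of Themis+/+ LN had nearly the same number of N bases as deposited, 1.49 each. After the ends had been restored and merged, the differences were -0.196 N bases and -0.308 V bases trimmed. Each then had the smallest possible p (exact permutation test, p = 0.0556, adjusted p = 0.111).

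**Figure D4:**
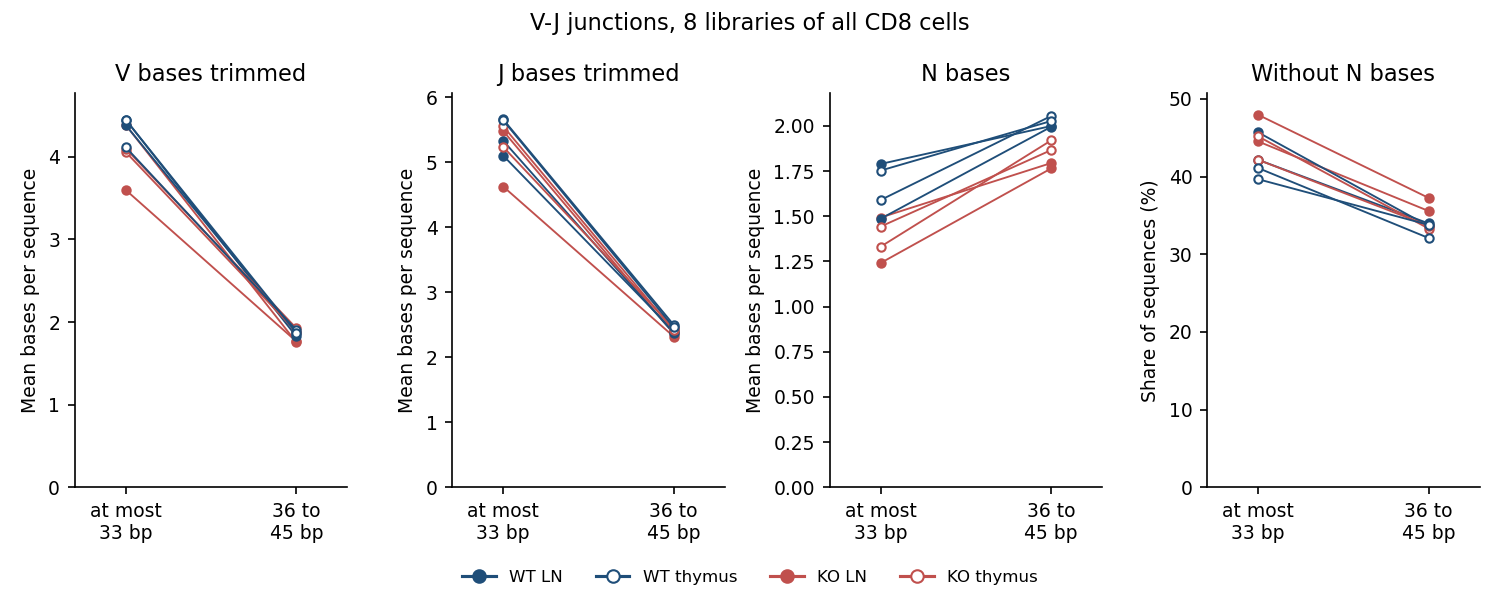
Mean bases trimmed from V and from J, mean N bases and share of sequences without N bases (y axes, bases per sequence or percent) for short sequences and those of 36 to 45 bp (x axis) in each of the 8 libraries of all CD8 cells, with a line per library. Blue marks Themis+/+ and red Themis-/-, filled points LN and open points thymus. In every library V and J trimming was higher and N bases were lower in short sequences.

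The residues of the loop center differed as well. The core was taken as what remains without the first 3 and the last 4 residues, which leaves out the changed bases, and held 3.66 residues on average in short sequences and 6.52 in those of 36 to 45 bp. Aromatic residues (F, W, Y) made up 14.3% to 16.8% of the core of short sequences (median 15.2%) and 10.03% to 11.6% of the others (median 10.7%), a difference of 4.57 points. Hydrophobic residues (A, I, L, M, F, V, W) were lower, at 9.25% to 10.6% against 13.1% to 13.5%, and acidic residues at 3.92% to 7.50% against 8.07% to 9.51%. The ranges of the 8 libraries did not overlap for any of the 3, and each had an adjusted p of 0.00938 in the exact paired permutation test (two-sided, over 6 measures), whose raw p of 0.00781 is the smallest that 8 libraries allow. The mean hydropathicity on the Kyte-Doolittle scale was -1.66 ± 0.0736 per residue against -1.32 ± 0.0253 (SD, n = 8 libraries), with the same p in this exact test. Basic residues were at 4.005% against 4.66% (exact permutation test, adjusted p = 0.0469), which did not hold in the same exact test by reads or after merging (adjusted p = 0.102 and 0.0703). The length classes also differ in how much of the V and J ends is left in the core. The p-values of this paragraph therefore do not test residue use apart from length.

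Single residues show where the shift lay. Asparagine rose from 15.6% ± 0.549 of core residues at 36 to 45 bp to 27.8% ± 2.08 in short sequences, and tyrosine from 8.61% ± 0.313 to 14.1% ± 0.911 (SD, n = 8 libraries), both in 8 of 8 libraries. Before any weighting, tyrosine was the only aromatic residue that rose. Phenylalanine was at 0.470% in short sequences against 0.952% and tryptophan at 0.745% against 1.19%, higher in 0 and 1 of 8 libraries. Serine was at 12.4% against 17.1%, threonine at 5.14% against 6.97% and alanine at 5.21% against 6.48%, all lower in 8 of 8 libraries. The J segments that short CDR3s used most, TRAJ31, TRAJ33 and TRAJ21, encode asparagine or tyrosine in the middle of the loop. With the longer sequences weighted to the J use of short ones, asparagine there was at 22.7% and tyrosine at 9.78%.

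Glycine was lower in short sequences at first count, with 12.9% to 18.7% of core residues (mean 16.3%) against 18.1% to 19.5% (mean 18.8%), a difference of -2.43 points (exact permutation test, adjusted p = 0.00938). The direction depended on the comparison. With the longer sequences weighted to the J use of short ones, an alternative chosen after seeing the data, the difference was 2.54 points, higher in 8 of 8 libraries, and it was 3.25 points with a core without the first 4 and last 5 residues and 2.44 points in sorted libraries. The aromatic, hydrophobic and acidic differences kept their direction under the same weighting, at 4.45, -1.76 and -3.76 points, while that in hydropathicity shrank to -0.0789 per residue, still lower in 8 of 8 libraries. The weighting evened out J use only, not V use or trimming. With the core without the first 4 and last 5 residues, the differences were 1.44 points for aromatic, -1.11 for hydrophobic and -4.36 for acidic residues and -0.171 for hydropathicity, each still past the threshold in the exact paired permutation test (adjusted p from 0.0156 to 0.0469).

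**Figure D5:**
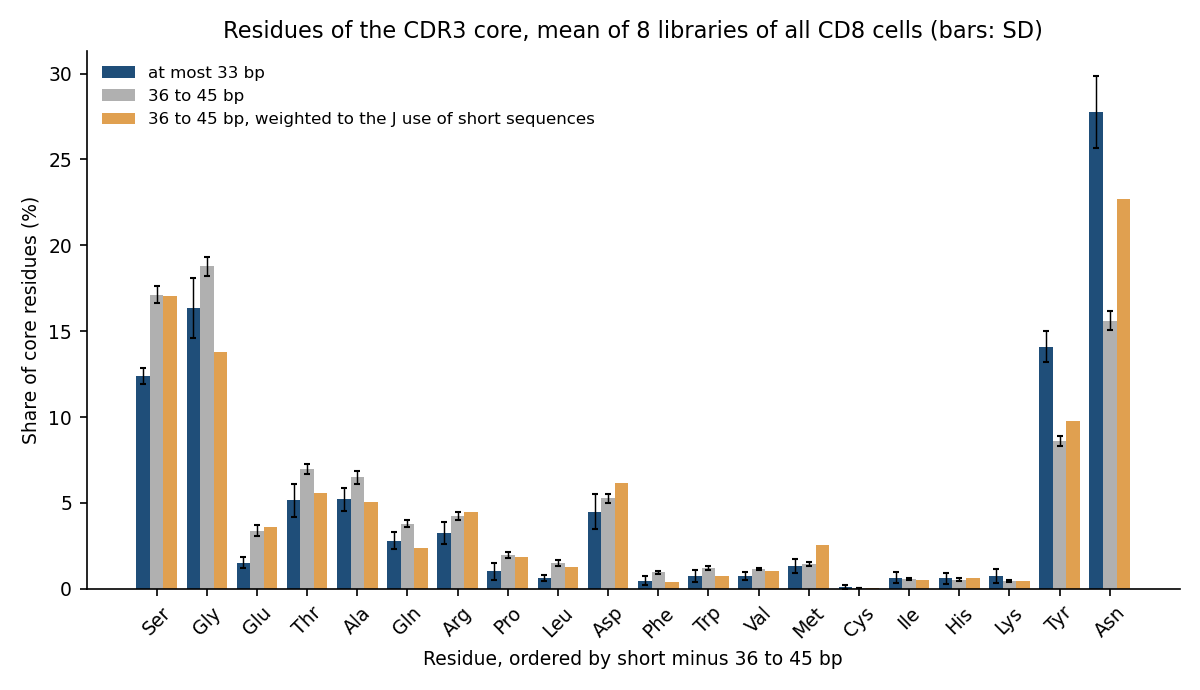
Share of each residue among all residues of the CDR3 core (percent, y axis), ordered by the difference between short sequences and those of 36 to 45 bp (x axis), as means of 8 libraries of all CD8 cells with SD. Orange bars give the longer sequences weighted to the J use of short ones. Asparagine at 27.8% and tyrosine at 14.1% are the residues most raised in short sequences, and serine at 12.4% the most lowered.

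Short clones were not detectably larger or smaller. In libraries of all CD8 cells they had 10.2 ± 2.18 reads per sequence against 11.3 ± 2.74 (SD, n = 8 libraries), a mean log2 ratio of -0.138 with 1 of 8 libraries higher (exact paired permutation test, p = 0.0391, and 0.0781 adjusted over 2 measures). After the ends had been restored and merged, the ratio was -0.0308 (exact paired permutation test, p = 0.75). Sequences with 1 read made up 18.5% and 17.9% (exact paired permutation test, adjusted p = 0.203). The largest single short clone was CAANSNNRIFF (TRAV14-1 with TRAJ31), with 673 reads or 0.536% of replicate 1 of Themis+/+ LN. As deposited, it had rank 1 in that library. With the ends restored and merged, the largest clone of the reference class there had 1078 reads. The largest short clone then had rank 2, with 746 reads. In the sorted libraries the largest was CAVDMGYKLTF (TRAJ9), with 336 reads or 2.88% of replicate 1 of Themis+/+ thymocytes, a library in which 5 sequences were short.

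Fewer short CDR3s were shared between libraries than longer ones. By nucleotide sequence, 13.5% to 20.1% of the short sequences of a library of all CD8 cells (median 17.02%) were found in at least 1 other such library, against 17.96% to 22.98% (median 19.5%) at 36 to 45 bp, and the short share was lower in each of the 8 libraries as deposited. After the ends had been restored and merged, it was lower in 7 of 8, the exception being replicate 1 of Themis+/+ LN at 24.6% against 24.3%. By amino acid sequence the shares were 31.7% to 40.7% (median 36.8%) and 37.1% to 45.2% (median 40.2%), again lower in each library, also after merging. Libraries share sequences mutually, so no test was made. Sharing reached 19.6% on average with the other genotype of the same tissue and 20.1% with the other tissue of the same genotype, by amino acid sequence. Without the values within a group or at 36 to 45 bp beside them, these do not show whether genotype or tissue changed sharing. In sorted libraries, 37.2% ± 16.4 of short amino acid sequences were shared against 48.9% ± 6.93 (SD, n = 8 libraries), with few sequences behind each value. On average 1.17 to 1.24 nucleotide sequences encoded a short amino acid sequence in a library and 1.21 to 1.29 a longer one, or 1.02 to 1.13 and 1.07 to 1.18 after merging, when the short value was lower in 7 of 8 libraries.

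Short CDR3s found in more libraries had fewer N bases. Those found in 1 library had 1.73 N bases on average and 37.1% had none. Those found in 2 libraries had 0.562, with 64.8% without any, and the 102 nucleotide sequences found in 3 or more had 0.196, with 86.3% without any. J trimming went from 5.84 to 3.53 and 2.36 bases over the same steps, and V trimming from 4.31 to 3.67 and 3.49. For N bases, the sequences of 36 to 45 bp showed the same order at a higher level, with 2.23, 1.01 and 0.550. Those of 36 to 45 bp found in 3 or more libraries had lost 1.38 V and 1.52 J bases.

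By amino acid sequence, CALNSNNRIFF and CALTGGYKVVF, both printed above, were found in all 8 libraries of all CD8 cells. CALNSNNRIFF was encoded by 6 nucleotide sequences that were assigned to 7 V segments, mostly of the TRAV12 and TRAV6 groups. Its reads numbered 124 and 6 in Themis-/- LN, 11 and 22 in Themis+/+ LN, 6 and 5 in Themis-/- thymocytes and 29 and 1 in Themis+/+ thymocytes, so that the highest count stood beside 6 reads in its own group and the lowest beside 29. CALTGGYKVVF had 4 and 16, 2 and 5, 54 and 51, and 98 and 14 reads in the same order, with the thymus libraries at or above 14 reads and the LN libraries at or below 16. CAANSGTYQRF (TRAJ13), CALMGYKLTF, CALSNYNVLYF, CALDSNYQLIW, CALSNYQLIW and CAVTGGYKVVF (TRAJ12) were each found in 7 libraries, with 155 to 281 reads. After the ends had been restored and merged, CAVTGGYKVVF was in 8, as was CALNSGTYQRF, which was named after its values were seen.

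Among sorted cells, the 4 short TRAV9-3 chains found in the highest number of libraries (3 to 5 of 8) are shown because 3 of them share the start CAV and the TRAJ9 stretch MGYKLTF and differ in the fourth residue. The alignments in the tables assigned no N base to these sequences, but that of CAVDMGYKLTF runs on over 2 edits in the V segment and that of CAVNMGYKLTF over 1 in some entries.
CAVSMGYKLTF (TRAJ9): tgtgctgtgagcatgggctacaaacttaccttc
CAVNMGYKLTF (TRAJ9): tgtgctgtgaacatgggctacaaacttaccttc
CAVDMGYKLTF (TRAJ9): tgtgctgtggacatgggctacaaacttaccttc
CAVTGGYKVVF (TRAJ12): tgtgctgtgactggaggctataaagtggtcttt
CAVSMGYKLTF and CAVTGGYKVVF were each found in 5 of the 8 sorted libraries, with 277 and 60 reads, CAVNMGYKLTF in 4 with 147 reads and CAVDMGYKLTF in 3 with 373 reads, of which 336 lay in 1 library. The sorted libraries held 173 different short TRAV9-3 amino acid sequences and the libraries of all CD8 cells 53, and 13 were found in both, 7.51% of the first list and 24.5% of the second. With any V segment, 77 of the 173 (44.5%) were found among the short sequences of all CD8 cells. The same overlap was not counted for longer sequences, so these values do not set short CDR3s apart.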

How the data were processed

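TCRα transcripts were amplified by template switching and nested PCR with a constant-region primer, without molecular identifiers, and sequenced on a MiSeq. Per the methods, the authors assembled CDR3s with MiXCR (version not stated in the methods). The submitters' processing notes name the build mm9 and CASAVA 1.4. Each deposited table lists CDR3 nucleotide sequences of 1 library with the count of reads of each, a raw count, and a fraction, which is that count divided by the library's total, as computed by the authors' software. Tables of sorted and of all CD8 cells had different export formats. Libraries held 10338 to 146191 reads, and intervals are 95% Wilson intervals.

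Sequences of at most 33 bp were compared with those of 36 to 45 bp. The members and lists were chosen with earlier results of these data known. Groups followed the labels, 2 libraries each; 1 label field names the sorted cells Va2.3 where another gives Va3,2, and the V segments match the latter. Numbers of distinct sequences per V or J segment, the D and N copies of a V segment merged, were tested with edgeR 4.0.16 in R 4.3.3 (quasi-likelihood, TMM, at least 10 sequences in 2 columns, Benjamini-Hochberg adjusted p under 0.05), with the library as a block between length classes and the tissue or genotype as a term within short sequences, and with DESeq2 1.42.0 as an alternative. Shares, junctions and residues were compared by two-sided exact permutation tests (scipy 1.17.1), stratified by the other factors or paired within libraries. V and J ends, trimming and N bases came from the alignments in the tables. Segment names, sequences and coordinates came from GENCODE M21 (GRCm38), since the tables hold no coordinates. Up to 8 J and 6 V segments per direction were named, those with the smallest adjusted p and the same direction in all 8 libraries, besides TRAV9-3 and the families TRAV14, TRAV6 and TRAV12. CDR3s were named for the number of libraries, for the highest share of reads in a group, or as the shortest. The edgeR step was tested on simulated counts. Alternatives changed the length limit, weighting by reads, low-count filter, scaling, replicate block, residue core and the replicates used. The restoration of the last 9 bases, the J weighting, the crossed replicate numbers, the count of edits in the alignments and the restrictions to TRAV9-3 or to all CD8 cells were chosen after seeing the data.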

Additional observations from a re-analysis of the deposited data

How the results depend on the processing

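Of 205 values of 26 results under alternatives, 159 kept their direction and their side of the threshold or stayed near the main count. With at most 30 bases, the sort difference was -0.910 points by reads and -0.893 by sequences and no longer passed, and the genotype difference by reads turned to 0.325. Among TRAV9-3 sequences only, the sort differences were 1.58 and -0.245 points. In libraries of all CD8 cells only, the genotype difference by reads was 0.164 points. Without replicate 1 or 2 of each group, the sort difference ranged from -3.15 to -1.01 points by reads and from -2.62 to -1.36 by sequences, the tissue difference by sequences from -0.963 to 0.130 and the genotype difference by sequences from -0.0871 to 0.391, both with the other sign without replicate 1. In the 8 sorted libraries, the genotype differences turned to 0.0274 N bases, 0.471 V bases trimmed and -0.786 points without N bases, and the difference in sequences with 1 read to -1.59 points. Glycine was 3.25 points higher in short sequences with a shorter core, 2.44 in sorted libraries and 2.54 with J weighting. In sorted libraries the other residue differences kept their direction without passing, at -3.85 (hydrophobic), 3.34 (aromatic), -0.103 (basic), -0.839 (acidic) and -0.241 (hydropathicity). Basic residues were at -0.657 points by reads and -0.715 after merging. Leaving out a replicate number left 4 pairs, whose smallest exact p is 0.125, and gave ranges of -2.60 to -2.25 (glycine), -3.68 to -3.37 (hydrophobic), 4.42 to 4.73 (aromatic), -1.03 to -0.282 (basic), -2.70 to -2.58 (acidic) and -0.346 to -0.345 (hydropathicity). V segments passing between length classes numbered 3 by reads and 5 to 6 with a replicate number left out. J segments passing by genotype numbered 1 after merging (TRAJ9) and 0 to 2 with a replicate number left out, with TRAJ12 higher and TRAJ33 lower without replicate 1. The causes were not tested.

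The labels do not say that replicate numbers pair libraries, and deviations of same-numbered libraries correlated at -0.134 in LN and 0.257 in thymus over J segments. With the replicate block, 2 J segments passed by genotype (TRAJ9 and TRAJ12, higher in Themis-/-), and the sort difference by reads was -2.08 points with an adjusted p of 0.0703 in the exact permutation test. The other blocked results kept their calls. With crossed replicate numbers, 1 J segment passed by genotype (TRAJ12). Sorted thymus libraries with 5 short sequences limit what the sorted comparisons can show.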
